A study of Arabidopsis thaliana with 9 samples.

Results

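The genes described here are those of the mitochondrial genome of *Arabidopsis thaliana*, taken as every feature of the count files whose locus identifier begins with ATMG. There were 152 of them among 37336 counted genes. mRNA-seq libraries were made from polyA RNA of seedlings at an age of 12 days, grown under long days in the Col-0 ecotype, with 3 libraries each for wild type (WT), *zmp-1* and *zmp-2*. *zmp-1* and *zmp-2* are T-DNA insertions in *ZMP* (lines SALK_066029 and SALK_008955), the gene of a protein that binds RNA polymerase IV, and each mutant is represented by 1 line, which still held some *ZMP* transcript. No treatment was applied. The labels number the replicates of each genotype without saying whether they came from separate plantings, so every p-value here measures the spread between these libraries, which may be technical.

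Plant mitochondria keep a small genome that encodes some subunits of the respiratory chain (NADH dehydrogenase or complex I, apocytochrome b of complex III, cytochrome c oxidase or complex IV), of ATP synthase, of the ribosome and of the machinery that attaches heme to cytochrome c, together with many open reading frames of unknown function. This list is not complete, and most mitochondrial proteins are encoded in the nucleus. Polyadenylation marks mitochondrial RNA for decay in plants, so selection for polyA tails does not sample these transcripts as it samples nuclear mRNA. In the Col-0 nuclear genome, chromosome 2 carries a large insertion of mitochondrial DNA near its centromere, whose genes are near-identical copies of mitochondrial genes.

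The 9 libraries held 5815211 to 25182435 counts, of which 55.1 to 66.3% fell on chloroplast genes. *ZMP* transcripts were at 5.40 to 8.36 reads-per-million units (RPM) in WT, 2.03 to 2.92 in *zmp-1* and 0.903 to 1.51 in *zmp-2*. The labels name seedlings and the methods name inflorescences. The 3 leaf markers summed to 4990 to 7581 RPM over the libraries, the 4 root markers to 0.745 to 6.39, and the 9 floral markers to 1.47 to 3.36, with *AG* and *A9* at 0 in every library. WT replicate 3 stood apart from the other 8 libraries in nuclear genes of mitochondrial stress, which are described last, and results that rest on it are given with and without it. None of the 36 pairs of libraries held identical values.

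Mitochondrial genes took a small share of each library, and the ranges of the genotypes in that share overlapped. It was 1.61, 1.47 and 2.16% in WT replicates 1, 2 and 3, 1.04, 1.49 and 1.67% in *zmp-1*, and 1.53, 1.28 and 1.27% in *zmp-2*. WT replicate 3 was the highest and *zmp-1* replicate 1 the lowest, and the genotypes overlapped. The means were 1.75% ± 0.36 for WT, 1.40% ± 0.33 for *zmp-1* and 1.36% ± 0.15 for *zmp-2* (SD, n = 3 each). In exact two-sided permutation tests the p-value was 0.5 for *zmp-1* against WT, 0.2 for *zmp-2* against WT and 1 for *zmp-2* against *zmp-1*, or 0.75, 0.6 and 1 after Benjamini-Hochberg adjustment over the 3 pairs. The smallest p-value that 3 libraries against 3 can give is 0.1. The Wilson 95% interval of a single library's share was at most 0.00985 percentage points to either side, and it covers counting error only, since sequencing reads without molecular identifiers are not independent molecules.

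Without WT replicate 3 the difference from WT was -0.14 percentage points in place of -0.35 in *zmp-1*, and -0.18 in place of -0.39 in *zmp-2*. When chloroplast counts were left out of the total, mitochondrial genes held 4.24, 3.89 and 4.81% in WT, 3.00, 4.20 and 4.45% in *zmp-1*, and 3.94, 3.79 and 3.26% in *zmp-2*. The genotypes again overlapped, and the adjusted p-value of the exact permutation test was 0.6 for each of the 3 pairs. Without ATMG00020, the most abundant gene, the share of all counts was 0.704, 0.684 and 0.869% in WT, 0.504, 0.689 and 0.695% in *zmp-1*, and 0.676, 0.590 and 0.607% in *zmp-2*. The *zmp-2* libraries then lay below all WT libraries, with an exact permutation p of 0.1, the smallest possible, or 0.3 after adjustment over the 3 pairs, and outside the chloroplast these p-values were the same. With the nuclear genes of the chromosome 2 insertion added, *zmp-2* differed from WT by -0.644 points outside the chloroplast. The exact permutation p was again 0.1, or 0.3 after adjustment, while for the share of all counts it was 0.2, or 0.6 after adjustment. WT replicate 3, with the highest mitochondrial share, had the lowest chloroplast share, 55.1%, and *zmp-1* replicate 1, with the lowest mitochondrial share, had the most counts of any library and a chloroplast share of 65.5%. Without *zmp-1* replicate 1 the difference between *zmp-1* and WT outside the chloroplast was 0.00926 percentage points, in place of -0.430. The part of library depth and chloroplast content in these shares was not tested.

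**Figure D1:**
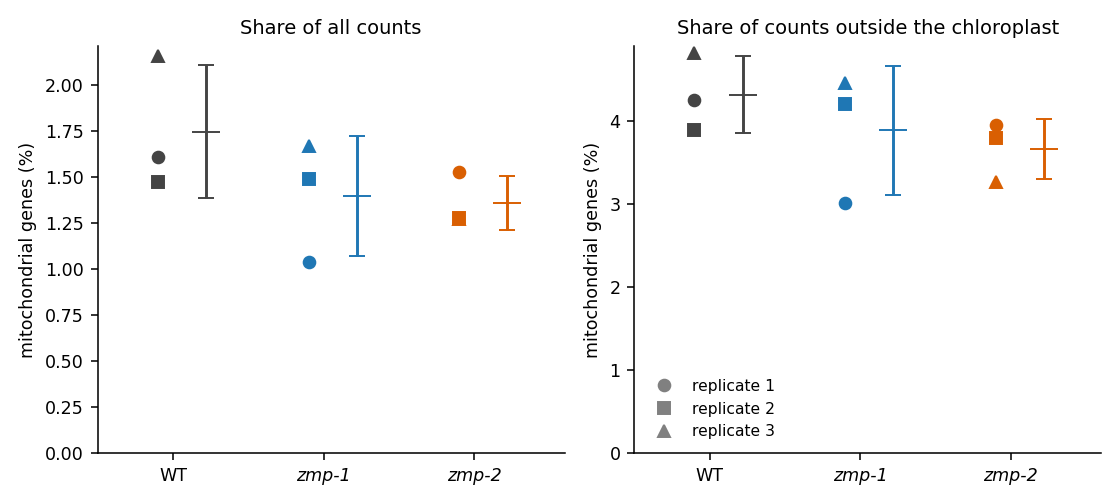
Mitochondrial genes as a percentage of all counts (left) and of counts outside the chloroplast (right) for each library, with symbols for the replicate number and bars for the mean ± SD of 3 libraries per genotype. The genotypes overlap in both panels, with WT replicate 3 highest in each at 2.16% and 4.81%.

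Counts were concentrated in very few genes. Summed over the 9 libraries, 30 of the 152 genes had 1000 counts or more, 50 had at least 10 but under 1000, 24 had 1 to 9 and 48 had none, while 71 genes had a count in every library. The 10 most abundant genes held 89.8 to 93.8% of mitochondrial counts in each library and the 20 most abundant 97.2 to 98.4%. For a gene at 0, a library allowed a share of up to 0.00115 to 0.00346% of its mitochondrial counts (3 counts). The reference annotation used here gives no length for these identifiers, so the shares say where the reads fell and do not compare transcript levels between genes.

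ATMG00020 alone held more than all other mitochondrial genes together. It had 56.7, 54.0 and 60.2% of mitochondrial counts in WT, 51.7, 54.1 and 58.8% in *zmp-1*, and 56.2, 54.2 and 52.5% in *zmp-2*. The coefficient of variation of its share was 0.0510 against a median of 0.284 over the 57 genes that passed the filter on low counts, but ATMG00020 makes up most of the total it is divided by, which limits how far its share can move. Its level, scaled to library size as described with the tests, ran from 5661 to 11617 RPM. The sources used here give neither this identifier nor the next 12 by rank a name or function.

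ATMG00030 followed with 12.95 to 17.5% of mitochondrial counts, ATMG01360 with 4.48 to 8.80% and ATMG01390 with 4.67 to 8.15%. In WT replicate 3 ATMG01360 was at its lowest and ATMG00020 at its highest, and in *zmp-1* replicate 1 this was turned around. Among the next 6 genes, ATMG00090, ATMG00160, ATMG00060, ATMG00070, ATMG00640 and ATMG00080, the mean share over the 9 libraries lay between 0.855% (ATMG00080) and 1.85% (ATMG00090). The highest-ranked gene with an annotated product was ATMG01320, which ranked 14 and is annotated as NADH dehydrogenase 2B, a complex I subunit. Its share was 0.376, 0.684 and 0.382% in WT, 1.06, 0.634 and 0.638% in *zmp-1*, and 0.470, 0.621 and 0.763% in *zmp-2*.

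The make-up of the mitochondrial counts varied between libraries. By genotype, 31 of the 57 genes that passed the filter had their highest share in a *zmp-1* library, 23 in a *zmp-2* library and 3 in a WT library, and the lowest share fell in WT for 29, in *zmp-1* for 19 and in *zmp-2* for 9. By library, 19 genes had their highest share in *zmp-1* replicate 1 and 19 in *zmp-2* replicate 3, while 17 had their lowest share in WT replicate 3, 12 in *zmp-1* replicate 3 and 9 in WT replicate 1. Shares of one total cannot move freely: where ATMG00020 takes more of the counts, the rest have less. The coefficient of variation of the share exceeded 0.5 in 4 genes, ATMG01380 at 0.944, ATMG00180 at 0.808, ATMG00630 at 0.589 and ATMG00580 at 0.509. ATMG00580 was at 0.216, 0.685 and 0.231% in WT, 1.00, 0.400 and 0.466% in *zmp-1*, and 0.291, 0.589 and 0.550% in *zmp-2*, with WT replicate 2 and *zmp-1* replicate 1 highest within their genotypes, as for ATMG01170, ATMG00510 and ATMG01320.

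**Figure D2:**
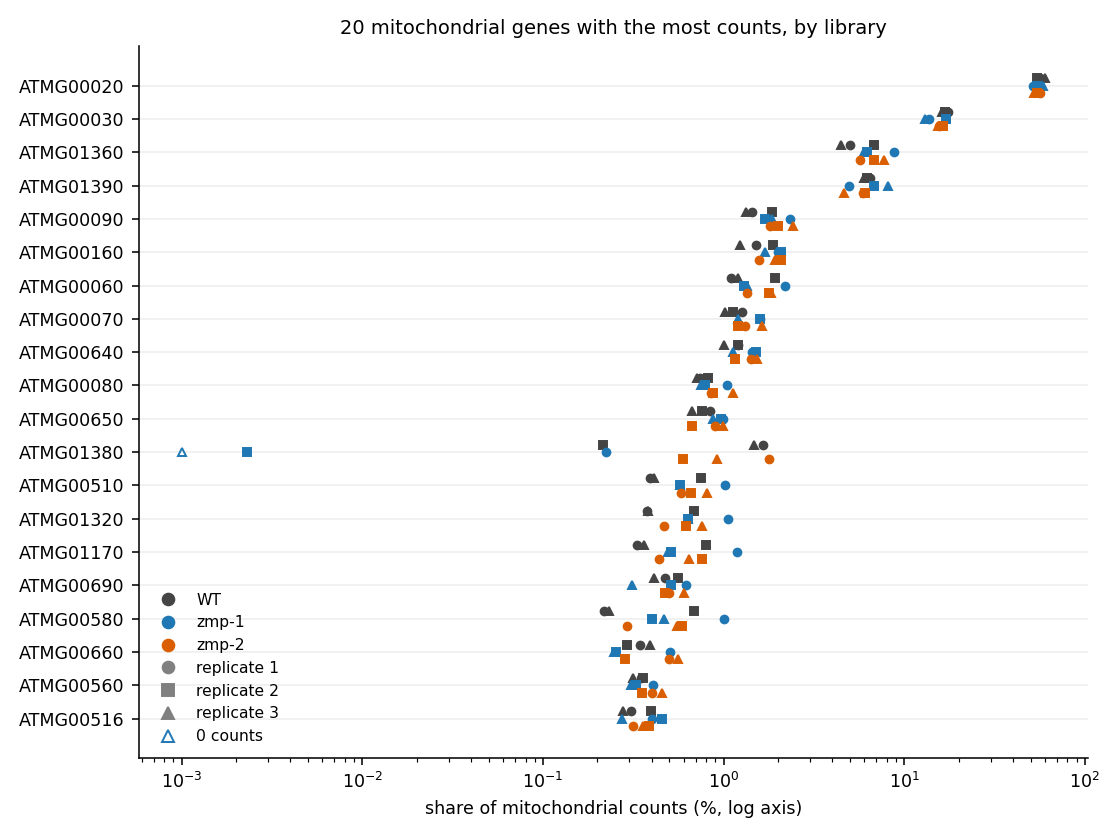
Share of mitochondrial counts (percent, log axis) in each of 9 libraries for the 20 mitochondrial genes with the largest mean share, with colours for the genotype, symbols for the replicate number and an open symbol for a count of 0, drawn at the left edge. ATMG00020 lies between 51.7 and 60.2% in every library, and ATMG01380 spreads from 0 to 1.78%.

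Names could be given to some of these genes through notes in the reference that link a nuclear gene to its mitochondrial match. Such a link exists for 53 of the 152 genes, and these held 26339 counts, or 1.61% of the mitochondrial total. By the product named in the note, 5 were ATP synthase subunits, 3 were complex I subunits, 3 were cytochrome c maturation proteins, 4 were ribosomal proteins, 2 were cytochrome c oxidase subunits and 2 were annotated with cytochrome b. A further 5 carried another name and 29 were unknown proteins or known only from a pseudogene. The other 99 genes, with 98.4% of the counts, have no link in these notes and are described by identifier.

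Among the linked complex I genes, ATMG01320 had 10509 counts over the 9 libraries, ATMG01275 (NADH dehydrogenase 1A) had 437 and ATMG00990 (NADH dehydrogenase 3) had none. Among the linked ATP synthase genes, ATMG01090, noted as ATP synthase 9, had 3216 counts and ATMG00480 (subunit 8) had 2162. ATMG01080, annotated as F0-ATPase subunit 9, had 9, ATMG00410 (ATPase subunit 6-1) had 6 and ATMG01190 (subunit 1) had 2. ATMG01090 and ATMG00480 thus carried nearly all counts of the 5 linked ATP synthase genes. The note of ATMG01090 is a best protein match of AT2G07777, which aligned over 59.3% of its length, and ATMG01080 has a subunit 9 note too. The counts of ATMG01090 therefore cannot be assigned to subunit 9. Subunits without a link in these notes are not counted among them. Apocytochrome b (ATMG00220) had 1 count and ATMG00590 (cytochrome b/b6 protein) had none. The linked cytochrome c oxidase genes were ATMG01280, annotated as subunit II-like, with 315 counts and ATMG00730 (subunit 3) with 42. Genes of this complex without a link could not be named here.

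Among the linked cytochrome c maturation genes, ATMG00960 (cytochrome C assembly protein) had 397 counts. ATMG00180, annotated with cytochrome C biogenesis, had 194 and ATMG00900, with the same kind of note, had 1. The linked genes whose note names a ribosomal protein were sparse, with 118 counts for ATMG00980 (S12/S23 family), 62 for ATMG00290 (S4), 7 for ATMG00210 (L5) and none for ATMG01270 (S7). Ribosomal protein genes without a link could not be named here.

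Product classes were compared by their share of mitochondrial counts, in a design that cannot reach a p-value of 0.05. The named classes hold only linked genes whose note names the product, so their shares do not describe whole complexes. ATMG00560, whose note names no ribosomal protein, was outside the ribosomal class, which had a mean share of 0.00883% in WT. The share of ATMG00560 alone was 0.347, 0.359 and 0.314% in WT, 0.405, 0.328 and 0.305% in *zmp-1*, and 0.400, 0.354 and 0.456% in *zmp-2*. ATP synthase genes held 0.266% ± 0.015 of mitochondrial counts in WT, with 0.396% ± 0.098 for *zmp-1* and 0.323% ± 0.077 for *zmp-2*, and complex I genes 0.504% ± 0.174, 0.809% ± 0.249 and 0.644% ± 0.157 (SD, n = 3 each). Cytochrome c maturation genes held 0.0284% ± 0.0083 in WT, with 0.0573% ± 0.0236 for *zmp-1* and 0.0330% ± 0.0016 for *zmp-2*. Of 27 exact permutation tests, over 9 classes and 3 pairs of genotypes, 5 gave the smallest possible p-value of 0.1, and the lowest value after Benjamini-Hochberg adjustment was 0.54. Those 5 compared ATP synthase, cytochrome c maturation and ribosomal proteins in *zmp-1* with WT, and the last 2 of these classes in *zmp-2* with *zmp-1*, and in each of them *zmp-1* held the larger share.

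These low counts have to be read beside the nuclear copies. A comparison of the reference mitochondrial genome (367808 bp) with the nuclear chromosomes of TAIR10.1 found 17 matches of at least 1000 bases and 95% identity on chromosome 2, between positions 3239038 and 3509765, which covered 269621 bases, and 1 match on chromosome 1 (24272962 to 24275844). Of the mitochondrial genome, 72.2% had such a nuclear copy, with a mean identity of 99.9%. The deposited values count read pairs that map to a single place, so a pair from an identical stretch is lost to both copies, and a pair assigned to a copy cannot be told apart from one that arose in the other. This reference's mitochondrial sequence may differ from the one used for the counts, and the 2 were not compared. AT2G07727 matched this reference over 3243 bases without a mismatch and still had 10899 single-place counts. The identities therefore describe the reference only and do not say which pairs were lost in the counting.

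Counted nuclear genes in the chromosome 2 insertion numbered 167, of which 81 had no count. The others held 94248 counts together. Set against the mitochondrial counts of the same library, the insertion had 4.13, 6.64 and 3.87 counts per 100 in WT, 7.83, 5.10 and 5.48 in *zmp-1*, and 4.95, 5.91 and 6.64 in *zmp-2*. *zmp-1* replicate 1 was highest and WT replicate 3 lowest, WT replicate 2 lay well above the other WT libraries, and the genotypes overlapped. Of the insertion genes, 52 passed the filter on low counts and none was called in any of the 3 comparisons, with edgeR's lowest adjusted p at 0.486. At an unadjusted p under 0.05 there were 0, 0 and 2 of the 52 in *zmp-1* against WT, *zmp-2* against WT and *zmp-2* against *zmp-1*, beside 9.16, 12.1 and 4.36% of all genes tested.

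For some products the reads fell on the nuclear copy and for others on the mitochondrial gene. The nuclear copy of ATP synthase subunit 1, AT2G07698, had 37861 counts against 2 for ATMG01190, and the copy of apocytochrome b, AT2G07727, had 10899 against 1 for ATMG00220. AT2G07687, the copy of cytochrome c oxidase subunit 3, had 3474 against 42 for ATMG00730, and AT2G07695 had 840 against 315 for ATMG01280. The opposite held for ATMG01320, with 10509 counts against 11 for AT2G07689, for ATMG00480, with 2162 against 2 for AT2G07707, and for ATMG01090, with 3216 against 2 for AT2G07777.

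Divided counts were rarer. ATMG00560, annotated as a nucleic acid-binding OB-fold-like protein, had 6052 counts and its copy AT2G07715 had 3512, and the mitochondrial gene held 58.7 to 72.6% of the pair in each library. ATMG00960 had 397 and AT2G07768 had 118, with 66.1 to 89.2% on the mitochondrial gene. Over 55 linked pairs, 29 had 100 counts or more together, of which 13 had more on the mitochondrial gene and 16 more on the nuclear one, and 8 pairs had no count on either side. Of the 55 nuclear genes, 54 lie in the chromosome 2 insertion. All 55 matched the reference mitochondrial genome at 99% identity or more over the aligned stretch, and 28 had neither a mismatch nor a gap, but some gene models align only in part (59.3% of AT2G07777). With the insertion genes added, the linked ATP synthase genes took 1.69 to 3.26% of the combined counts in place of 0.255 to 0.481% of the mitochondrial ones. The linked cytochrome b genes took 0.422 to 0.870% in place of at most 0.000578%.

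**Figure D3:**
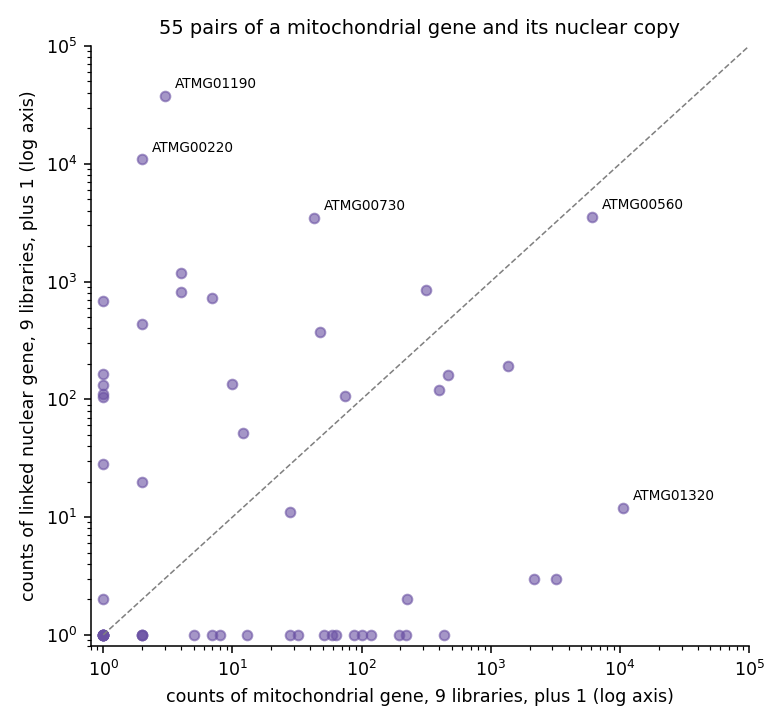
Counts over 9 libraries, plus 1, of a mitochondrial gene (horizontal, log axis) and of the nuclear gene linked to it (vertical, log axis) for 55 pairs, with a dashed line at equal counts. ATMG01190 and ATMG00220 lie far above the line, with 37861 and 10899 counts on the nuclear gene, and ATMG01320 far below it, with 10509 counts on the mitochondrial gene.

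No mitochondrial gene was called changed in either mutant, in a quasi-likelihood test with edgeR on all genes (TMM scaling, Benjamini-Hochberg adjustment, adjusted p of at most 0.05). The filter on low counts kept 57 of the 152 genes, with 99.9% of the mitochondrial counts, and the 95 left out had at most 62 counts each over the 9 libraries. In *zmp-1* against WT 0 of 57 were called, beside 0.0442% of all 18109 genes tested (8 genes). In *zmp-2* against WT 0 of 57 were called, beside 0.177% (32 genes), and in *zmp-2* against *zmp-1* 0 of 57, beside 0.0221% (4 genes). At an unadjusted p under 0.05 there were 3, 0 and 3 mitochondrial genes in these comparisons, which is 5.26, 0 and 5.26% beside 9.16, 12.1 and 4.36% of all genes. DESeq2 called none of the 57 either, in any of the 3 comparisons, and had 3, 0 and 2 at an unadjusted p under 0.05. The lowest adjusted p-value of a mitochondrial gene in the edgeR fit was 0.344, 0.579 and 0.944. Without WT replicate 3 the count called was still 0 in both mutants, with lowest adjusted p-values of 0.726 and 0.723.

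The changes of most genes were small. In *zmp-1* 32 of the 57 log2 fold changes were positive and 25 negative, with a median of 0.05 beside -0.01 over all genes tested. In *zmp-2* 35 were positive and 22 negative, with a median of 0.04 beside -0.02. The log2 fold change lay within 0.5 of zero in 49 of 57 genes in *zmp-1* and in 56 of 57 in *zmp-2*. The whole 95% interval lay within 1 of zero for 39 genes in *zmp-1* and for 41 in *zmp-2*, so a change by a log2 of 1 or more lies outside the interval for those genes, while for the others the spread of the libraries leaves it within. Both mutants were compared with the same WT libraries.

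ATMG00020, the most abundant gene, was at 9352, 7601 and 11617 TMM-scaled RPM in WT, 5661, 8292 and 9935 in *zmp-1*, and 8516, 7677 and 6377 in *zmp-2*. The genotypes overlapped, with the lowest value in *zmp-1* replicate 1 and the highest in WT replicate 3. Its log2 fold change in *zmp-2* was -0.34 ± 0.25 (SE, adjusted p = 0.636). ATMG00030 had -0.35 ± 0.23 (adjusted p = 0.579) and ATMG01390 -0.41 ± 0.30 (adjusted p = 0.645) in the same comparison, so none of the most abundant genes passed the test. The lowest log2 fold changes in *zmp-2* were those of ATMG00120 (-0.46), ATMG00180 (-0.46) and ATMG01390, and the highest those of ATMG09950 (0.50), ATMG00285 (0.50) and ATMG00490 (0.33).

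**Figure D4:**
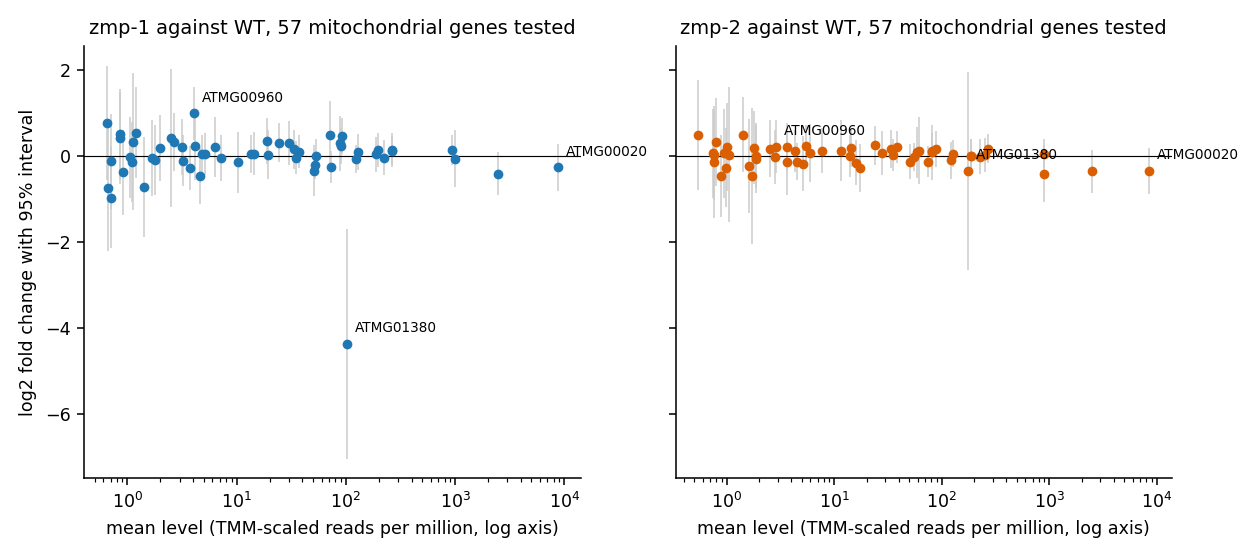
Log2 fold change with its 95% interval against the mean level (TMM-scaled RPM, log axis) for the 57 mitochondrial genes tested, in *zmp-1* (left) and *zmp-2* (right) against WT. Most points lie within 0.5 of zero, and ATMG01380 stands apart in *zmp-1* at -4.37 with an adjusted p of 0.344.

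ATMG01380 had the largest difference of any mitochondrial gene. Its counts were 2864, 460 and 2820 in WT, 585, 2 and 0 in *zmp-1*, and 3945, 1089 and 1674 in *zmp-2*. As a share of mitochondrial counts these were 1.66, 0.214 and 1.48% in WT, 0.224, 0.00231 and 0% in *zmp-1*, and 1.78, 0.592 and 0.914% in *zmp-2*. In *zmp-1* replicate 3 a count of 0 of 119280 mitochondrial counts allows a share of up to 0.00252%.

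On the TMM-scaled level WT and *zmp-1* did not overlap, with 273, 30.2 and 285 RPM against 24.5, 0.353 and 0. On the share of mitochondrial counts they did, since WT replicate 2 (0.214%) lay below *zmp-1* replicate 1 (0.224%). The log2 fold change of ATMG01380 in *zmp-1* against WT was -4.37 ± 1.22 (SE), with a 95% interval from -7.04 to -1.69, an unadjusted p of 0.00405 and an adjusted p of 0.344 in edgeR's test, so the gene was not called. In *zmp-2* against WT it was -0.34 (adjusted p = 0.929), and in *zmp-2* against *zmp-1* 4.03 ± 1.20 (adjusted p = 0.944).

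The call depended on *zmp-1* replicate 1. Without this library ATMG01380 was the only mitochondrial gene called, lower in *zmp-1* than in WT (adjusted p = 0.0364) and higher in *zmp-2* than in *zmp-1* (adjusted p = 0.0474), with the remaining *zmp-1* libraries at 2 and 0 counts. In that fit 0.159 and 0.148% of all 18288 genes tested were called (29 and 27 genes), beside 8 and 4 genes with all libraries. With the replicate number as a block and only the 6 libraries compared, an alternative chosen after seeing the data, ATMG01380 was also called in *zmp-2* against *zmp-1* (adjusted p = 0.0370, beside 0.0966% of all genes), although numbers do not pair the libraries of these genotypes. The adjusted p for *zmp-1* against WT was between 0.0364 and 0.759 over the alternatives run. The 2 remaining *zmp-1* libraries are the shallowest of the series, at 5815211 and 7149691 counts in all, and the part of depth was not tested. The sources used here give no name, function or length for ATMG01380. The spread within WT was also wide, from 460 counts in replicate 2 to 2864 in replicate 1.

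Groups whose libraries did not overlap at the TMM-scaled level were few among mitochondrial genes. They numbered 3 of 57 in *zmp-1* against WT, or 5.26% beside 12.6% of all genes tested, and 2 of 57 in *zmp-2* against WT, or 3.51% beside 16.3%. In *zmp-2* against *zmp-1* they numbered 6 of 57, or 10.5% beside 11.9%. In *zmp-1* the 3 genes were ATMG01380, ATMG00960 and ATMG01320, and in *zmp-2* they were ATMG00090 and ATMG00690. ATMG00690 was at 78.2, 78.2 and 79.5 TMM-scaled RPM in WT, 67.3, 78.5 and 52.7 in *zmp-1*, and 75.7, 66.9 and 72.7 in *zmp-2*. WT lay in a narrow band above *zmp-2*, and the log2 fold change was -0.13 ± 0.16 (SE, adjusted p = 0.802), smaller than its error. The 6 genes in *zmp-2* against *zmp-1* were ATMG01380, ATMG00960, ATMG01320, ATMG00710, ATMG00970 and ATMG00040.

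ATMG00960, annotated as a cytochrome C assembly protein, was at 3.15, 2.69 and 2.12 TMM-scaled RPM in WT, 3.77, 6.54 and 6.09 in *zmp-1*, and 2.87, 3.62 and 2.85 in *zmp-2*. The *zmp-1* libraries lay above all 6 others. The log2 fold change in *zmp-1* was 1.00 ± 0.28 (SE), with an unadjusted p of 0.00421 and an adjusted p of 0.344, and in *zmp-2* against *zmp-1* it was -0.77 ± 0.27 (adjusted p = 1.00), so neither passed the test. ATMG00960 had 21 to 90 counts per library, and reads of its nuclear copy AT2G07768 cannot be told apart from its own.

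ATMG01320 (NADH dehydrogenase 2B) was at 62.0, 96.3 and 73.8 TMM-scaled RPM in WT, 115.9, 97.0 and 107.8 in *zmp-1*, and 71.2, 88.0 and 92.6 in *zmp-2*. The *zmp-1* libraries were highest, although *zmp-1* replicate 2 exceeded WT replicate 2 by under 1 RPM. The log2 fold change was 0.47 ± 0.19 (SE, adjusted p = 0.485). The remaining named extremes in *zmp-1* were low in counts: ATMG00285 had 0.78 ± 0.61, ATMG00980 (a ribosomal protein of the S12/S23 family) 0.55 ± 0.48, ATMG00710 -0.96 ± 0.54 and ATMG00280 -0.75 ± 0.67, all with an adjusted p of 0.617 or more. ATMG00280 is annotated by similarity to the large chain of ribulose bisphosphate carboxylase, a chloroplast enzyme.

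Nuclear genes that act with the mitochondrial genome were examined as 8 lists with 52 genes, all of them in the count table and 45 of them tested. None was called in *zmp-1* or in *zmp-2*, beside 0.0442 and 0.177% of all genes tested (DESeq2 called 1 gene in *zmp-1*, *AOX1D*, and none in *zmp-2*). An unadjusted p under 0.05 in edgeR's test was reached by 12 and 9 of the 45. That is a larger share than the 9.16 and 12.1% among all genes tested. Without WT replicate 3, fewer of the 45 reached it in each mutant. The 11 genes of mitochondrial gene expression (polymerases, maturases, nucleases and DNA-binding proteins) had median log2 fold changes of -0.01 in *zmp-1* and 0.09 in *zmp-2*, and the 8 genes of complex I -0.15 and -0.13. Over all 45 genes the medians were -0.26 and -0.17, beside -0.01 and -0.02 over all genes tested, and without WT replicate 3 they were -0.03 and -0.01.

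The lists of alternative respiration and of mitochondrial stress response had the lowest medians, at -1.28 and -1.84 in *zmp-1* and -1.08 and -1.39 in *zmp-2*, with 6 genes tested in each. These values followed WT replicate 3. In 10 of these 12 genes WT replicate 3 was the highest of the 9 libraries. Alternative oxidases pass electrons from ubiquinone straight to oxygen and are known to be induced when the respiratory chain is impaired.

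*AOX1D* (alternative oxidase 1D) had the lowest log2 fold change of the lists in both mutants. It was at 0.667, 2.10 and 44.2 TMM-scaled RPM in WT replicates 1, 2 and 3, at 0.167 to 0.709 in *zmp-1* and at 0.137 to 0.927 in *zmp-2*, so WT was high through 1 library. The log2 fold change was -5.69 ± 1.52 (SE, adjusted p = 0.331) in *zmp-1* and -4.89 ± 1.32 (adjusted p = 0.205) in *zmp-2*, and without WT replicate 3 it was -2.19 (adjusted p = 0.832) and -1.45 (adjusted p = 0.602). *AOX1A*, the other alternative oxidase gene tested, was at 22.9, 20.4 and 174.2 in WT and at 19.3 to 36.6 in the mutants, with log2 fold changes of -1.73 in *zmp-1* and -1.18 in *zmp-2*, and of 0.01 and 0.57 without WT replicate 3. AT2G21640, annotated as a marker of oxidative stress, was at 1.33, 1.38 and 30.8 in WT and 0.712 to 1.59 in the mutants, with -3.42 and -3.09, and with -0.36 and -0.08 without that library. Neither *AOX1A* nor AT2G21640 was called in either mutant, with or without it.

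AT5G51440, a small heat shock protein of the HSP20-like family, was the only one of the 12 genes besides *NDA2* whose WT libraries all exceeded the mutant libraries, at 11.2, 12.1 and 66.0 TMM-scaled RPM in WT against 4.68 to 7.71. Among all genes tested, the libraries did not overlap, in either direction, for 12.6% in *zmp-1* against WT and 16.3% in *zmp-2* against WT. The log2 fold change of AT5G51440 was -2.50 ± 0.60 (adjusted p = 0.293) in *zmp-1* and -2.21 ± 0.58 (adjusted p = 0.190) in *zmp-2*, and without WT replicate 3 -1.16 (adjusted p = 0.254) and -0.86 (adjusted p = 0.238). The largest log2 fold changes of the lists were 0.23 for *NDC1*, an alternative NAD(P)H dehydrogenase, in *zmp-1* and 0.31 for *SUV3*, a mitochondrial RNA helicase, in *zmp-2*.

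Without WT replicate 3 the medians of the alternative respiration genes were -0.27 in *zmp-1* and -0.27 in *zmp-2*, and those of the stress response genes -0.01 and -0.02. Of the 12 genes, 10 had a negative log2 fold change in *zmp-1* and 11 in *zmp-2*, of which 4 and 5 were positive without WT replicate 3, among them *AOX1A*, *NDA1* and *UGT74E2* in both mutants. *UGT74E2*, a glycosyltransferase induced by hydrogen peroxide and singled out here after its values were seen, was the only one of them called, in *zmp-2*, where it went from -1.03 (adjusted p = 0.653) to 1.38 (adjusted p = 0.0358). That is 1 of the 45 list genes tested, beside 0.157% of all 18465 genes tested in that fit (29 genes). *UGT74E2* was at 25.6, 21.7 and 328.3 TMM-scaled RPM in WT, 25.6 to 36.1 in *zmp-1* and 49.5 to 70.1 in *zmp-2*. WT replicate 3 is also the library with the highest mitochondrial share, 2.16% of all counts, and the highest share of ATMG00020, 60.2% of mitochondrial counts. The part of this library's state in the differences from WT was tested only by leaving it out.

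**Figure D5:**
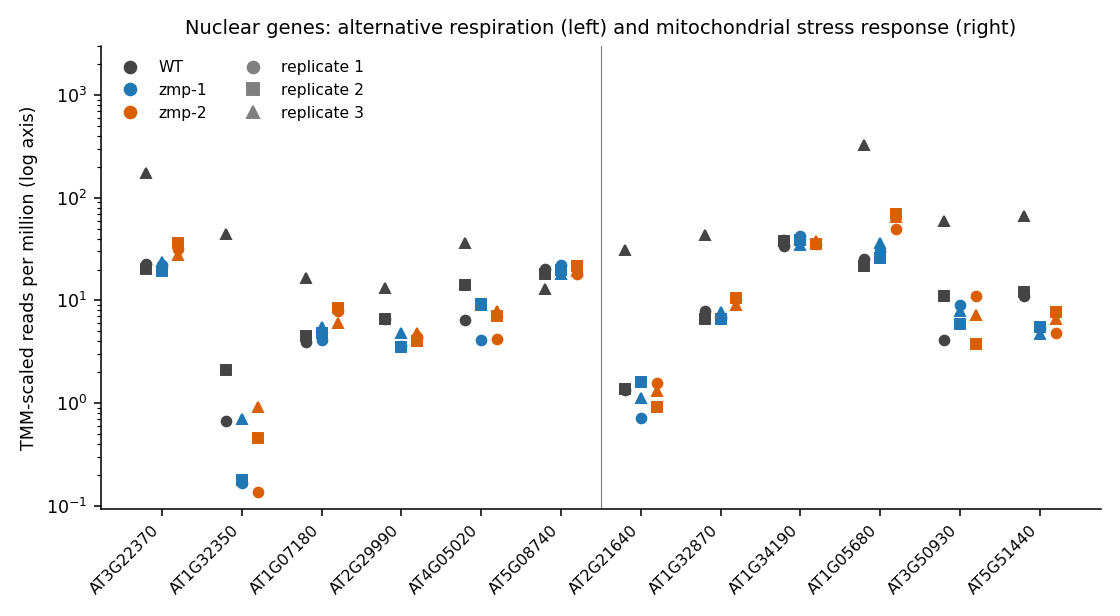
TMM-scaled RPM (log axis) in each library for the 12 tested nuclear genes of alternative respiration (left of the line) and mitochondrial stress response (right of the line), with colours for the genotype and symbols for the replicate number. WT replicate 3 is the highest library in 10 of the 12 genes, and *AOX1D* (AT1G32350) is at 44.2 there and at 2.10 or less in the other 8 libraries.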

How the data were processed

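mRNA-seq counts of 9 libraries were used, with genotypes and replicate numbers from the labels. Trim Galore and STAR 2.5.3a were used by the authors for trimming and alignment (TAIR10 genome, Araport11 genes), and they deposited raw counts of read pairs per gene, not normalized. Which strand was counted is not given in the sources used here, and the library kit does not mark strand, so antisense genes cannot be separated. Pairs that map to several places are not counted. The depth was 86661 to 261278 mitochondrial counts per library.

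Genes were filtered with filterByExpr by genotype, scaled by TMM and tested with edgeR 4.0.16 (R 4.3.3) in a quasi-likelihood model of all 9 libraries, since the methods state no test for these data. p-values were adjusted over all 18109 genes and the code was tested on simulated data. Shares were compared with exact permutation tests. The numbers paired WT with *zmp-2*, where all 3 same-numbered pairs of libraries deviated together (correlations of deviations from the genotype means of 0.128 to 0.277, against -0.299 to 0.0760 in the 6 other pairs); this comes from the data, as the labels do not say what a number marks. They did not pair *zmp-1* with WT (0 of 3 over 0.1) or with *zmp-2* (1 of 3). Nuclear copies were found with blastn 2.17.0 and named from reference notes (TAIR10.1). Alternatives were DESeq2 1.42.0, other scalings, filters and sample sets. The genes and lists were chosen with earlier results of these data known. Named genes are annotated subunits, the 10 largest shares, the 3 largest and smallest log2 fold changes in each mutant, and the extremes of the nuclear lists. *AOX1A*, *NDA1*, *NDA2*, AT5G51440, AT2G21640 and *UGT74E2*, and members named for their spread or lack of overlap, were added after their values were seen.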

Additional observations from a re-analysis of the deposited data

How the results depend on the processing

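The count of mitochondrial genes called was 0 in each of the 3 comparisons, and it stayed 0 with DESeq2, upper-quartile scaling, library size alone, chloroplast genes left out, the mitochondrial total as library size, all genes with a count, genes with at least 10 counts in each library, only the 6 libraries compared and an adjusted p of at most 0.01. Leaving out 1 library at a time gave 0 to 1 in *zmp-1* against WT and 0 to 1 in *zmp-2* against *zmp-1*, in both cases ATMG01380 without *zmp-1* replicate 1, and 0 in *zmp-2* against WT. For the nuclear lists, 0 in each mutant became 1 in *zmp-1* with DESeq2, 1 in *zmp-1* and 2 in *zmp-2* with no filter, and 0 to 1 in *zmp-2* when 1 library was left out. The cause was not tested. Over all genes, the counts of 8, 32 and 4 called in the 3 comparisons became 110, 218 and 16 with DESeq2 and 51, 130 and 8 with no filter. The difference between *zmp-2* and WT in the share outside the chloroplast was -0.65 percentage points, and -0.19 when ATMG00020, the larger part of the total, was left out, where the libraries no longer overlapped. The replicate block, a fit of all libraries with the replicate number as a factor, gave 0 mitochondrial and 0 nuclear list genes in every comparison. Added after seeing the data, the replicate block with only the 6 libraries compared gave 0 nuclear list genes in each mutant, and 0, 0 and 1 mitochondrial genes, the 1 being ATMG01380 in *zmp-2* against *zmp-1*; over all genes it called 11, 45 and 17. Within replicate numbers the share differences were the same by construction, -0.348, -0.388 and -0.0398 points of all counts and -0.430, -0.650 and -0.220 outside the chloroplast, with exact p-values from 0.25 to 1. With 3 pairs the smallest possible p is 0.25, so the 0 classes past the threshold under the block were fixed by the design.

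Among 765 alternative values for 56 log2 fold changes of named genes, 754 kept their side of the threshold and either their direction or a value within 1 SE, 8 uncalled values moved further with a change of sign, and 3 became calls (*AOX1D* in each mutant and ATMG01380). Scaling by library size alone moved the median of all genes to -0.12 in *zmp-1* and -0.10 in *zmp-2*, and the mitochondrial total moved it to 0.24 in both, where mitochondrial genes had medians of 0.28 and 0.30. Leaving out rRNA genes and counting per kb of gene were not run, because the reference used here gives neither names nor lengths for these identifiers.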
